A study of Mus musculus with 6 samples.

Results

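The Speer genes (spermatogenesis-associated, glutamate-rich) are a multicopy family of the mouse. The 7 described here are Speer2, Speer3, Speer4a, Speer4b, Speer4c, Speer4d and Speer4e, taken as the rows of the deposited table whose gene symbol equals one of these names. They are 7 of 55331 genes in that table and 7 of the 22048 that Cuffdiff tested. They were chosen by their fold change in this contrast, as a family noted for its uniform fall. Every named member was lower in the mutant testes, so that difference is given as a description and not as a test.

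RNA came from whole testes of mice aged 35 days, of a strain given as mixed. The control group was 3 libraries from mice homozygous for a floxed Ptbp1 allele (Ptbp1fl/fl). The Ptbp1_cKO group was 3 libraries from mice with the same floxed alleles and 1 copy of an Amh-Cre transgene (Ptbp1fl/fl; Amh-Cre+/-). Both groups thus carried the floxed alleles, and no group carried Amh-Cre alone, so an effect of the deletion and one of the transgene cannot be told apart. Cre from the Amh promoter acts in Sertoli cells, the somatic cells that nourish the germ cells, and PTBP1 is an RNA-binding protein that regulates splicing. The study asked about PTBP1 in Sertoli cells. The labels do not say that each library came from a separate animal.

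Speer genes are known as testis-specific genes of rodents, expressed in germ cells during spermatogenesis, that encode proteins rich in glutamate. They arose by repeated duplication, and many copies lie in blocks on chromosome 5. Their sequence has been related to part of Dlg5, which encodes a scaffold protein of the cell cortex.

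The sequences show how alike the members are. An exon of 160 bases that is wholly coding is present in each of the 7 members and in Speer1, a copy outside the set. In Speer4c it is exon 2 of 5 and lies at chr5:15712889-15713048 on the minus strand (mm10). In Speer2 it is exon 3 of 6, at chr16:69860452-69860611 on the minus strand. In the other 6 genes it is exon 2 of 5. The exon is printed for all 8 because it shows where each differs from Speer4c. The predicted copies described below were not compared in this exon. Each is given 5′ to 3′ from the longest GENCODE transcript, and capitals mark bases that differ from Speer4c.
Speer4c: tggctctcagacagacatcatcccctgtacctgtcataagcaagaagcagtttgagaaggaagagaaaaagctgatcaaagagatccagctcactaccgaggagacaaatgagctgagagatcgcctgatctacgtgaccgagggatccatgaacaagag
Speer4d: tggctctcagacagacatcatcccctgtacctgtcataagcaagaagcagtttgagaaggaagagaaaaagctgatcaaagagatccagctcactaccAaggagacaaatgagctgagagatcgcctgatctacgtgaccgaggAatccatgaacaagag
Speer4e: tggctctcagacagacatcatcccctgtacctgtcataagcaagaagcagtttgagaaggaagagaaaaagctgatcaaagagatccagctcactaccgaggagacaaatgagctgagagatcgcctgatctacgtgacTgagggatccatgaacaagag
Speer4a: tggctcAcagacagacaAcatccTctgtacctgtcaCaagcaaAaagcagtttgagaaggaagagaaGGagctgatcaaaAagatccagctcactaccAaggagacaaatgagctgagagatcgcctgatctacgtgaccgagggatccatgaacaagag
Speer4b: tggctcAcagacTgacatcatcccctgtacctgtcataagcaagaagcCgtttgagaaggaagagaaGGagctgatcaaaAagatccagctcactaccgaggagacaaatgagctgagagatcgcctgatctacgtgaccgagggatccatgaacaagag
Speer3: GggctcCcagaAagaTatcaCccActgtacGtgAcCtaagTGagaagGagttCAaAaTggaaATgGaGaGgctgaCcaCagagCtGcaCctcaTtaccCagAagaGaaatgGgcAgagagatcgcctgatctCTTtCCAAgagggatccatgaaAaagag
Speer2: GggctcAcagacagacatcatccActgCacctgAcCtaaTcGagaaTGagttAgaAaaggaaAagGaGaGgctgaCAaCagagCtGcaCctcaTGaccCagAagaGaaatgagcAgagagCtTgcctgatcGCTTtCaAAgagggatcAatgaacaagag
Speer1: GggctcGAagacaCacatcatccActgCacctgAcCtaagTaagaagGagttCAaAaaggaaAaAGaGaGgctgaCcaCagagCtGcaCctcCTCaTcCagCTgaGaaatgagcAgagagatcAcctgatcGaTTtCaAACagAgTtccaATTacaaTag

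Across this exon Speer4e differed from Speer4c at 1 base, Speer4d at 2, Speer4b at 6 and Speer4a at 9. Speer2, Speer3 and Speer1 differed at 38, 40 and 46 bases. A read that covers none of these positions fits more than 1 Speer4 member, whereas the differences of Speer2 and Speer3 from Speer4c are spread over the whole exon. The marks do not show how well reads of Speer2 or Speer3 can be told from each other or from further copies.

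Whole transcripts gave the same division. The 10 pairs among Speer4a to Speer4e were 89.2% to 98.5% identical over their aligned stretches, with Speer4c and Speer4d the closest pair. Against the Speer4 members, Speer2 and Speer3 were 73.6% to 77.0% identical, and they were 91.2% identical to each other. Speer1 was 88.5% identical to Speer3.

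**Figure D1:**
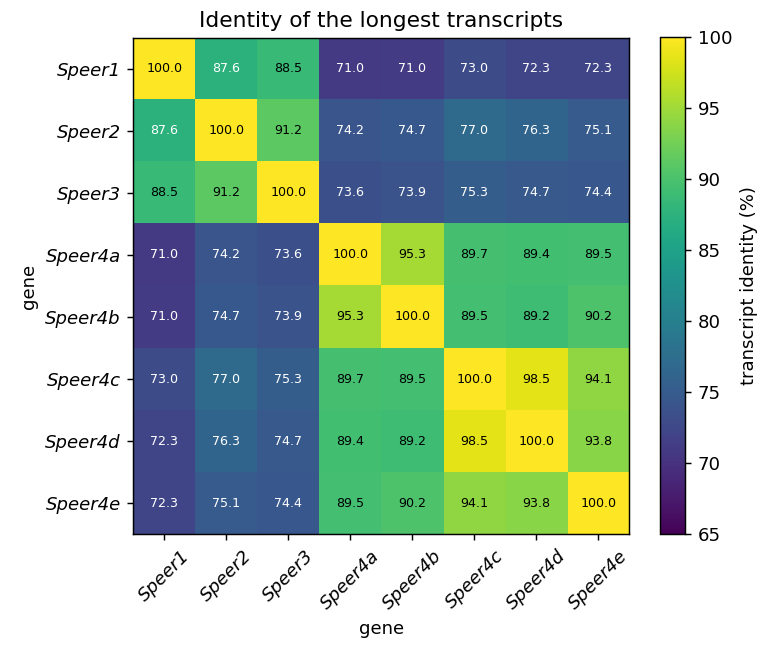
Percent identity of the longest annotated transcript of each Speer gene (rows) to that of each other (columns), over the aligned stretches. Speer4a to Speer4e form one block, from 89.2% to 98.5%, and Speer1, Speer2 and Speer3 another.

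Near-identical copies elsewhere in the annotation limit how far a value belongs to a single gene. At 95% identity over at least 80% of the member's transcript, Speer4a and Speer4b each had 8 such genes, Speer4c had 5 and Speer4d had 3. Speer2, Speer3 and Speer4e had 0 by that rule. Speer4e, however, shared 1175 of its 1603 bases with the predicted gene Gm21149 at 98.2% identity. Likewise, 609 of the 1192 bases of Speer3 were shared with the pseudogene Gm6650 at 95.6% identity. How the authors' processing divided fragments between copies is not given in the sources used here, so the Speer4 values in particular are uncertain for any one gene.

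Each group has a single FPKM value in the deposited data and none per library, so no spread between libraries can be stated. FPKM counts fragments per length of transcript, scaled to library depth. Steps in the lowest FPKM values showed that 1 FPKM on a transcript of 1 kb stood for 86.7, 72.7 and 66.2 fragments, one value for each control library, taking the FPKM of a group as an average over its libraries. The values for Ptbp1_cKO were 72.1, 66.8 and 65.2 fragments. The whole-testis origin was visible in the spermatid transcripts Tnp1 (19773 and 18244 FPKM in control and Ptbp1_cKO) and Prm1 (13135 and 16362 FPKM). The targeted gene Ptbp1 stood at 49.97 and 46.66 FPKM, a gene-level value from all testis cells that does not check the deletion in Sertoli cells.

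All 7 members had a lower FPKM in Ptbp1_cKO, where 49.1% of all tested genes did. The median log2 fold change of the members was -0.69 by the authors' deposited table, against 0.005 over all tested genes. The 7 values ran from -0.77 to -0.24 by the authors' deposited table, and no member was higher in Ptbp1_cKO. Fewer cells expressing these genes and less of the RNA per cell cannot be told apart in whole testis.

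Speer2 was by far the most abundant member. Its gene lies at chr16:69856874-69863744 on the minus strand, the sole member that is not on chromosome 5. Speer2 stood at 68.3 FPKM in control and 57.8 FPKM in Ptbp1_cKO, 15.3% lower. That is a log2 fold change of -0.24 by the authors' deposited table, the smallest difference among the members. About 13277 and 10036 fragments lay behind the 2 values, estimated from the depth and the longest transcript, which gives a 95% counting interval of ± 0.04 on the log2 scale. Intervals of this kind cover counting error only, and not the spread between libraries or the division of fragments between copies.

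Speer3 (chr5:13791619-13796820, plus strand) is the member closest to Speer2 in sequence. It stood at 3.69 FPKM in control and 2.48 FPKM in Ptbp1_cKO, 32.7% lower. Its log2 fold change by the authors' deposited table was -0.57, with a counting interval of ± 0.17 from about 780 and 469 fragments. The counting intervals of Speer2 and Speer3 do not overlap. They leave out the spread between libraries and the division of fragments between copies. Whether these related members differed in size of change was not tested.

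Speer4a to Speer4e covered a wide range of levels and a narrow range of change. Nothing is read from the narrow range, because the family was noted for its uniform fall. Speer4c (chr5:15709501-15714271, minus strand) was the highest of them, at 18.7 FPKM in control and 11.0 FPKM in Ptbp1_cKO. Speer4b (chr5:27495639-27501438, minus strand) stood at 12.6 and 8.08 FPKM. After Speer2 these are the most abundant members in both groups.

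The other Speer4 members were lower in abundance. Speer4d (chr5:15619064-15623864, plus strand) stood at 5.44 FPKM in control and 3.20 FPKM in Ptbp1_cKO. Speer4e (chr5:14933221-14938429, minus strand) stood at 3.67 and 2.28 FPKM. Speer4a (chr5:26032846-26039558, minus strand), the least abundant member, stood at 1.56 and 0.967 FPKM. Over the 5 Speer4 members the level in control thus spanned 1.56 to 18.7 FPKM, while every one was between 35.9% and 41.4% lower in Ptbp1_cKO.

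**Figure D2:**
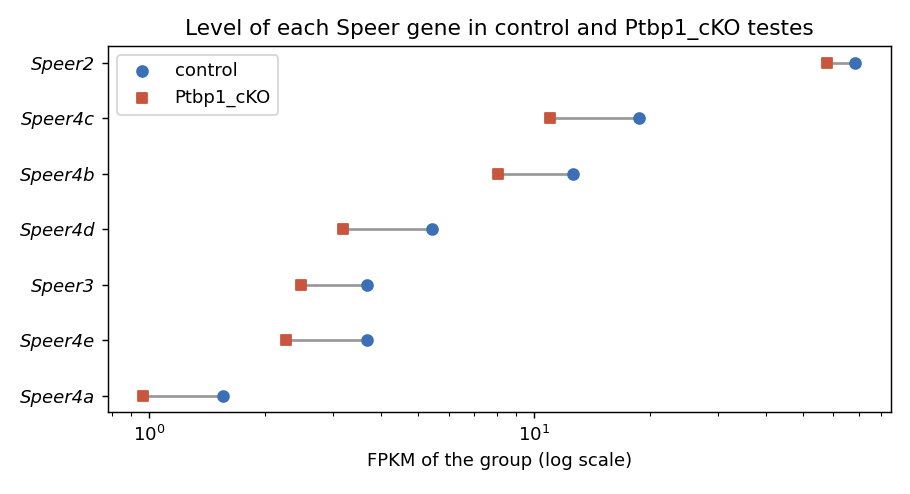
FPKM of the control group (circles) and the Ptbp1_cKO group (squares) for the 7 Speer genes, on a log axis, ordered by level in control; each point is the authors' single value for 3 libraries, so no error bar can be drawn. Every square lies to the left of its circle, and the gap of Speer2 (68.3 and 57.8 FPKM) is the shortest on this axis.

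In log2 units of the authors' deposited table, Speer4c and Speer4d were both at -0.77, Speer4e and Speer4a both at -0.69, and Speer4b at -0.64. The counting intervals were ± 0.08 for Speer4c, ± 0.14 for Speer4d and Speer4e, ± 0.15 for Speer4a and ± 0.06 for Speer4b. The intervals of Speer4a, Speer4d and Speer4e overlap those of every other Speer4 member, and those of Speer4b and Speer4c overlap by a narrow margin. Because these genes share sequence, the 5 values may not be independent measurements. Together the 5 summed to 42.0 FPKM in control and 25.5 FPKM in Ptbp1_cKO, a ratio of 0.607, while Speer2 and Speer3 summed to 72.0 and 60.3 FPKM, a ratio of 0.838. Speer2 accordingly held 59.9% of the FPKM summed over the 7 genes in control and 67.4% in Ptbp1_cKO.

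Cuffdiff's test, as deposited, called 3 of the 7 members at q under 0.05: Speer4e (q = 0.00848), Speer4a (q = 0.0281) and Speer4c (q = 0.0281) by the authors' deposited table. Over all tested genes 0.703% were called lower by this rule, 0.458% higher and 1.16% in either direction, and nothing is read from the members' count because the same contrast chose them. The other 4 had q = 0.143 (Speer4d), 0.475 (Speer2), 0.620 (Speer4b) and 0.696 (Speer3) by the authors' deposited table. Speer4b, which was not called, had about 5513 and 3175 fragments by the same estimate as above, and Speer4a, which was called, had about 957 and 535. With a normal p-value taken from the deposited test statistic and adjusted over all tested genes, 0 members were called, against 0.0454% of tested genes called lower. By that p-value, unadjusted, 3 members were under 0.05. The share of all tested genes under it was not computed, so nothing is read from that count. By Cuffdiff's own unadjusted p 5 members were under 0.05, against 4.59% of tested genes with that p and a lower FPKM. At q under 0.1 Cuffdiff's count of members was again 3, against 1.07% of tested genes called lower.

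The deposited loci of these genes differ in width. Cuffdiff gave Speer2, Speer4a and Speer4e a locus of their own, and Speer4c shared one with its antisense gene. Speer3 shared its locus with other rows, 4 in all, Speer4d with 6 in all and Speer4b with 8 in all, the last over 910303 bases. None of Speer3, Speer4d and Speer4b passed the threshold. Speer4b lies within Dpp6, a gene of the opposite strand that stood at 3.04 FPKM in control and 3.56 FPKM in Ptbp1_cKO. Speer4cos, which lies antisense to Speer4c, stood at 0.0177 and 0.0467 FPKM. Speer3 overlaps the antisense long non-coding RNA 4930568A13Rik, at 1.27 and 1.19 FPKM. Speer4d overlaps Gm21847 on the same strand, at 0.0777 and 0.0719 FPKM. The libraries were stranded, but the strand setting used in counting is not given in the sources used here.

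Of the other genes named Speer, 6 of 7 were tested, and none passed Cuffdiff's threshold in either direction, while 2 had an unadjusted p under 0.05. Over all tested genes 4.59% had such a p and a lower FPKM. All 6 had a lower FPKM in Ptbp1_cKO, with a median log2 fold change of -0.32 by the authors' deposited table. Speer4f1 stood at 5.89 FPKM in control and 4.20 FPKM in Ptbp1_cKO, and Speer4f2 at 7.39 and 5.68 FPKM. The pseudogenes stood at 3.72 and 2.97 FPKM (Speer5-ps1) and 0.436 and 0.365 FPKM (Speer6-ps1), and the non-coding Speer9-ps1 at 2.75 and 2.21 FPKM. Speer1 was nearly the same in both groups, at 5.05 and 4.96 FPKM. Its entry in the authors' deposited table is a log2 fold change of -0.03 and a q of 0.999. Dlg5, the single gene to which the family is related, stood at 1.79 and 1.91 FPKM, and its q was 0.999 by the authors' deposited table.

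Many more copies carry only predicted-gene or clone names. A transcript at least 80% identical to a member over at least 50% of the shorter transcript and 400 bases marked 53 further genes, Speer1, Speer4f1 and Speer4f2 included, the rule being chosen after the genes beside the members had been seen. Of these 40 were tested, and each was assigned to the member it resembled most. The 22 tested copies closest to a Speer4 member were all lower in Ptbp1_cKO, with a median log2 fold change of -0.59 and a range of -0.89 to -0.02 by the authors' deposited table. Cuffdiff called 5 of the 22 lower at q under 0.05 and 0 higher, where 0.703% of all tested genes were called lower and 0.458% higher. The 18 closest to Speer2 or Speer3 had a median of -0.07 and a range of -0.48 to 0.71 by the authors' deposited table, with 13 lower and 5 higher. None of the 18 was called by Cuffdiff, and 2 had an unadjusted p under 0.05, both lower, against 4.59% of all tested genes.

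The copies called lower were Gm9758, Gm10354, Gm17019 and Gm21149, which lie in the block of Speer4e to Speer4c, and Gm21663 in the block of Speer4a. Gm10354 stood at 17.4 FPKM in control and 10.8 FPKM in Ptbp1_cKO, and Gm17019 at 13.7 and 8.09 FPKM. Gm9758 stood at 7.45 and 4.61 FPKM and Gm21149 at 6.52 and 4.13 FPKM. Each of these 4 had q = 0.00848 by the authors' deposited table, and Gm21663 (1.77 and 1.16 FPKM) had q = 0.0474. The copies can share reads with the members, so their values may not be independent of them. The Speer4-type copy with the least difference was 5031410I06Rik, at 0.336 and 0.331 FPKM.

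A separate block of chromosome 5 held the copies related to Speer1. Within 1 Mb of Speer1, 13 tested copies including Speer1 itself had a median log2 fold change of -0.04 and a range of -0.38 to 0.03 by the authors' deposited table. Cuffdiff called 0 of the 13, and 0 had an unadjusted p under 0.05. The most abundant of them, Gm6455, stood at 20.5 FPKM in control and 18.2 FPKM in Ptbp1_cKO, and 4933402N22Rik at 14.7 and 14.1 FPKM. Speer4c, for comparison of level, stood at 18.7 FPKM in control. The difference between the 2 kinds of copy was not tested.

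**Figure D3:**
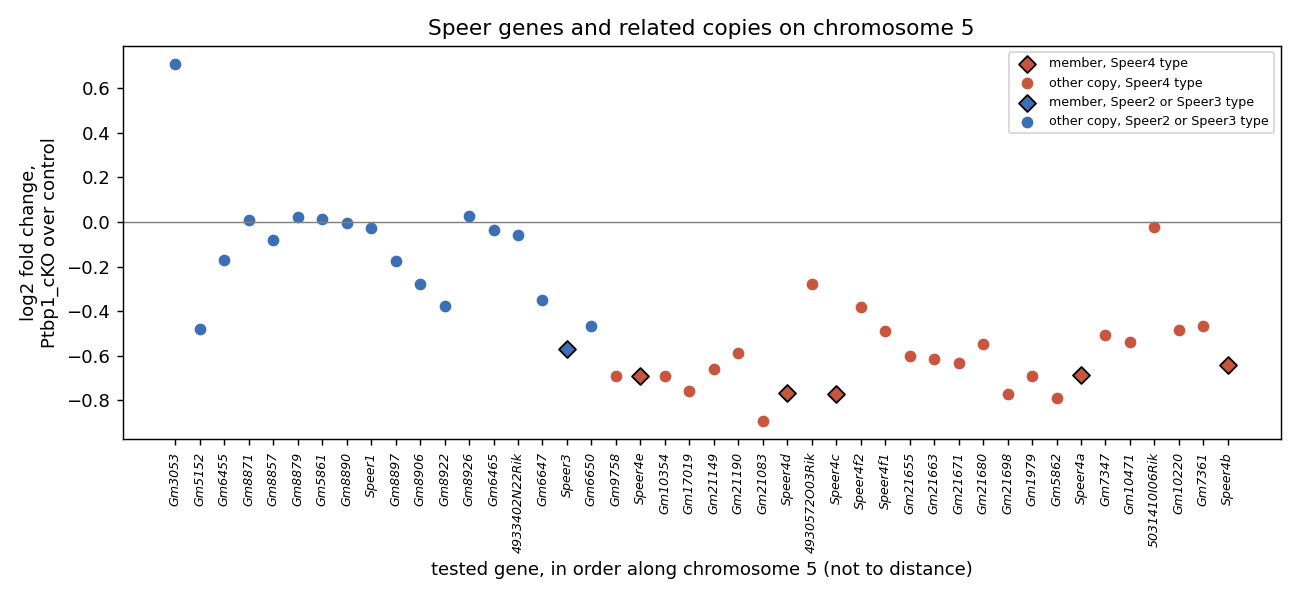
Log2 fold change, Ptbp1_cKO over control, of each tested Speer gene (diamonds) and related copy (circles) on chromosome 5, in gene order and not to distance; colour gives the kind of member that each resembles most. Speer2- or Speer3-type copies lie between -0.48 and 0.71, and those around Speer1 between -0.38 and 0.03. The Speer4-type genes lie between -0.89 and -0.02.

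Genes beside the members that are no copies of them had differences in both directions. Within 1 Mb of a member, 31 tested genes with no such similarity had a median log2 fold change of 0.05 by the authors' deposited table, with a range of -0.24 to 0.88, 20 higher and 11 lower. The 21 tested copies in the same windows had a median of -0.60 and were all lower. Cuffdiff called 0 of the 31, and 2 had an unadjusted p under 0.05, both higher. These are processed pseudogenes that lie among the copies around Speer4a, named here after their values were seen. Gm21168 stood at 0.226 FPKM in control and 0.416 FPKM in Ptbp1_cKO, and Gm6089 at 0.332 and 0.562 FPKM.

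The nearest tested genes that do not overlap a member give examples. Beyond Dpp6, in which Speer4b lies, Paxip1 stood at 12.0 FPKM in control and 11.7 FPKM in Ptbp1_cKO. Paxip1 takes part in the DNA damage response. On the other side the long non-coding 4930584F24Rik, which lies nearer to Speer4a than to Speer4b, stood at 70.8 and 73.5 FPKM. Next to Speer4c, the non-coding 4930519H02Rik stood at 27.8 and 29.1 FPKM. On either side of Speer2 on chromosome 16, 4930428D20Rik stood at 10.4 and 10.4 FPKM and Gm49655 at 6.73 and 7.27 FPKM. Among these 5 genes the differences went both ways, and all had q = 0.999 by the authors' deposited table.

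The nearest non-overlapping tested genes of Speer3, Speer4a, Speer4d and Speer4e were themselves copies. Gm9758 and Gm10354, described above, flank Speer4e. Gm6647 (13.5 and 10.6 FPKM) and Gm6650 (9.27 and 6.72 FPKM) flank Speer3. Gm5862 (0.921 and 0.534 FPKM) and Gm7347 (2.15 and 1.51 FPKM) flank Speer4a. Gm21083 (5.09 and 2.74 FPKM) lies before Speer4d, and 4930572O03Rik (0.984 and 0.811 FPKM) lies between Speer4d and Speer4c. The 6 copies beside Speer3, Speer4a and Speer4d were lower in Ptbp1_cKO, and none of them passed Cuffdiff's threshold, with q from 0.0896 to 0.999 by the authors' deposited table.

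Promoters are printed for Speer4c and Speer4a as members that were lower together, for Speer3 and Speer2 as the members outside the Speer4 group, and for Speer1 as the copy with nearly equal levels. Sequences come from RefSeq on GRCm38.p6, the same assembly as mm10, and all 7 members had an entry. Each runs 5′ to 3′ from 250 bases before the annotated start to 50 after it. Speer4c is at chr5:15714222-15714521 (minus strand), Speer4a at chr5:26039456-26039755 (minus), Speer3 at chr5:13791369-13791668 (plus), Speer2 at chr16:69863695-69863994 (minus) and Speer1, at the second of its starts, at chr5:11341211-11341510 (plus). Capitals mark TGATGTCA on either strand, which reads TGACATCA on the other.
Speer4c: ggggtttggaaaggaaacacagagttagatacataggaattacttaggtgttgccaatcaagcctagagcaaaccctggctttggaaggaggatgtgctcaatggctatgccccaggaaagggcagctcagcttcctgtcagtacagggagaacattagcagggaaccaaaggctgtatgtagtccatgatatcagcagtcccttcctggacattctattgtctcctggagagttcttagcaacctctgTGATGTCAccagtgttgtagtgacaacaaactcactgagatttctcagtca
Speer4a: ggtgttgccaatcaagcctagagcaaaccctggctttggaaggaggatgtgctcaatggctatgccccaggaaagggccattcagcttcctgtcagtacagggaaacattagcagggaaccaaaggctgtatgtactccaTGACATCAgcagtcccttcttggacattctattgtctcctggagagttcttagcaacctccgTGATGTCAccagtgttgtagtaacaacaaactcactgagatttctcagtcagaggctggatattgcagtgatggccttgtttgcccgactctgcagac
Speer3: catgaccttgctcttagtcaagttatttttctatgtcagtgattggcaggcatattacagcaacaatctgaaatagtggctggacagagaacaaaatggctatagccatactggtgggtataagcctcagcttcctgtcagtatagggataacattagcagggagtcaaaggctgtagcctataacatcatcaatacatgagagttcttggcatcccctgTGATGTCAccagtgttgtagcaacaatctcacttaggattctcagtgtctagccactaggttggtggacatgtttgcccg
Speer2: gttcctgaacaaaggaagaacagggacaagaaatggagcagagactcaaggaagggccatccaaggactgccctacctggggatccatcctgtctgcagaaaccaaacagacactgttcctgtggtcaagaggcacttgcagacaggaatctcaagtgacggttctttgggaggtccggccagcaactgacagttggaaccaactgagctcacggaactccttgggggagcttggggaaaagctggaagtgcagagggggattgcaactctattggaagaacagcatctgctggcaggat
Speer1: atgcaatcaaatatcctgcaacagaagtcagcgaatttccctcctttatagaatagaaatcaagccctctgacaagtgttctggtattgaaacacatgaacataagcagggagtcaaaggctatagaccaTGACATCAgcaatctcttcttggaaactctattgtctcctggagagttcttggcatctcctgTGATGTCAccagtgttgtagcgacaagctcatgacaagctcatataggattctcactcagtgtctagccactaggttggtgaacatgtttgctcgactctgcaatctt

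The windows of the 5 Speer4 members were 94.8% to 98.7% identical over 254 to 300 aligned positions. The window at the second start of Speer1 was 75.1% to 79.1% identical to them over 158 to 211 positions. The octamer TGATGTCA differs by a base from TGACGTCA, the consensus site of the CREB and CREM factors, and was looked for after the promoter letters had been seen. It was present in 6 of the 7 members, all but Speer2, against 3.62% of 32851 promoters of the same length. Because the Speer4 windows are so alike, their matches to this and to the motifs below are not independent of each other. It was also present in Speer4f1 and Speer4f2, and in Speer1, whose level was nearly the same in both groups. In Speer1 it lay in the window at the second start and was absent from that at the first. A match is a description of letters and does not show that a factor binds there.

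Of the other motifs searched on both strands, TGACGTCA was in none of the 7 members' windows and in 1.79% of all promoters. TGACG, a shorter site contained in it, was in Speer2 alone among the members and in 20.8% of all promoters. TATAAA was in none of the members, though in Speer1, and in 13.6% of all promoters. CCAAT was in all 7 and in 37.4% of all promoters. The window of Speer2 was 90.5% identical over 284 positions to that at the first start of Speer1.

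Lists of marker genes show how the germ cell stages stood in the same libraries. As a base for counts of lower genes, 4.59% of all tested genes were lower at Cuffdiff's unadjusted p under 0.05. Round spermatids are early haploid cells, and 16 of their markers had a median log2 fold change of -0.11 by the authors' deposited table, with 12 lower and 4 higher. Tex33 stood at 994.5 FPKM in control and 942.1 FPKM in Ptbp1_cKO and the kinase Tssk2 at 264.9 and 291.4 FPKM. None passed Cuffdiff's threshold, and 4 had an unadjusted p under 0.05. The range of the list, -0.36 to 0.20, takes in Speer2 (-0.24) but not Speer3 or any Speer4 member. Nothing is read from this, because the members were chosen by their fold change. The markers also stood higher in level than Speer3 and the Speer4 members, at 29.0 to 994.5 FPKM in control.

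Earlier and later stages gave medians of either sign. For 14 spermatocyte markers the median was -0.12 by the authors' deposited table, with 0 called by Cuffdiff and 2 at an unadjusted p under 0.05. The most abundant were the lactate dehydrogenase subunit Ldhc (2333 and 2030 FPKM) and the kinase Pgk2 (357.9 and 303.0 FPKM). For 12 tested elongating spermatid markers the median was 0.11, with 0 called and 2 at an unadjusted p under 0.05. Tnp1 and Prm1, named above, are the most abundant of them. Of 10 spermatogonial markers 2 rose, Kit (3.0 to 4.57 FPKM, q = 0.00848) and Uchl1 (40.3 to 54.7 FPKM; the authors' deposited table lists q = 0.0420). The list's median was 0.14, and its most abundant gene, Dmrtb1, had 1284 FPKM in control and 1191 FPKM in Ptbp1_cKO.

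The multicopy spermatid genes of the sex chromosomes are, like the Speer genes, families of many copies, and their median of -0.40 by the authors' deposited table was the lowest of the marker lists compared. Of 14 tested, 11 were lower and 3 fell past Cuffdiff's threshold: Sly of the Y chromosome (42.0 to 21.3 FPKM, q = 0.00848), Cypt2 (59.5 to 42.2 FPKM, q = 0.00848) and Cypt15 (55.6 to 37.6 FPKM; the authors' deposited table lists q = 0.0248). Cypt1 stood at 120.5 and 97.0 FPKM and Cypt3 at 93.3 and 72.1 FPKM, and neither passed. None of the list was called higher, though 3 had a higher FPKM in Ptbp1_cKO. By Cuffdiff's unadjusted p 8 of the 14 were under 0.05, all with a lower FPKM. Over all tested genes 4.59% were lower at that p, and 0.703% were called lower at q under 0.05. The range of the list, -1.15 to 0.10 by the authors' deposited table, takes in every Speer member. As for the round spermatid list, nothing is read from this, because the members were chosen by their fold change. This list was compiled with earlier results of these data known.

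Regulators of transcription in haploid germ cells lay near 0 on balance. The 10 genes listed had a median log2 fold change of -0.03 by the authors' deposited table, with 0 called by Cuffdiff and 0 at an unadjusted p under 0.05. Crem, an activator of spermatid genes, stood at 260.4 FPKM in control and 231.5 FPKM in Ptbp1_cKO, and the TBP-like factor Tbpl1 at 213.9 and 190.7 FPKM.

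**Figure D4:**
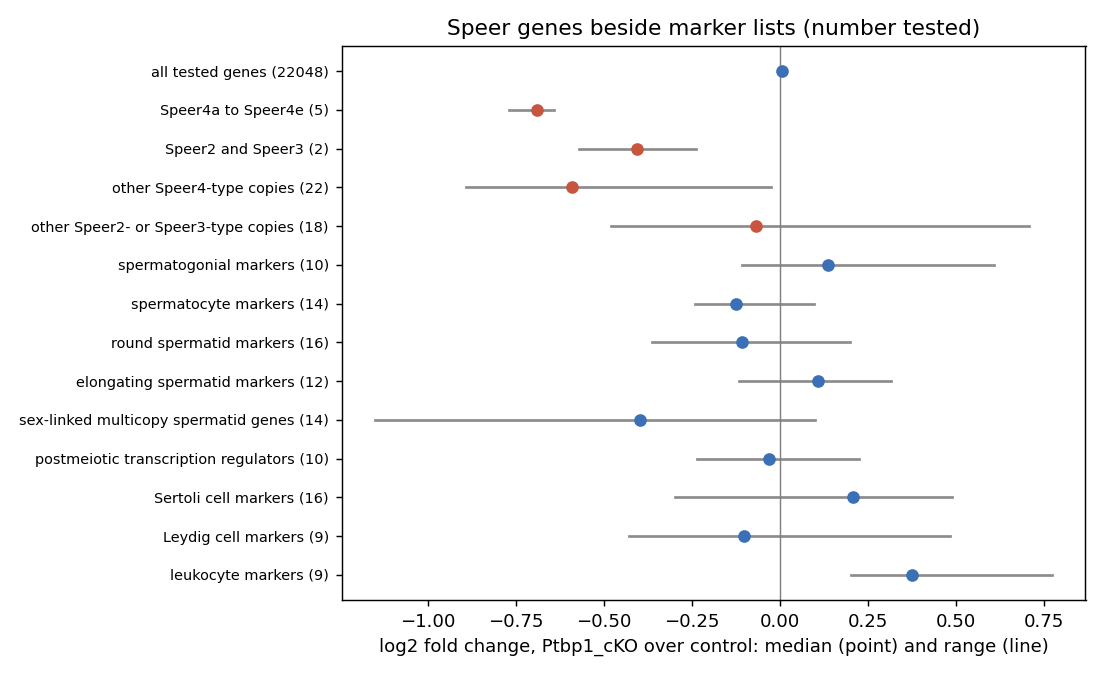
Median (points) and range (lines) of the log2 fold change, Ptbp1_cKO over control, for the Speer genes and related copies (red) and for marker lists (blue), with the number of tested genes in brackets; for all tested genes only the median is drawn. Speer4a to Speer4e, chosen by their fold change, lie between -0.77 and -0.64. That is outside the range of the round spermatid markers and inside that of the sex-linked multicopy spermatid genes.

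Markers of somatic cells differed in the other direction in part. Of 16 Sertoli cell markers 15 had a higher FPKM in Ptbp1_cKO, and the median log2 fold change was 0.21 by the authors' deposited table. The list summed to 1611 FPKM in control and 1922 FPKM in Ptbp1_cKO, and without Clu to 757.0 and 723.3 FPKM. Clu rose from 853.6 to 1199 FPKM (the authors' deposited table lists q = 0.00848). Ctsl, the sole marker of the list with a lower FPKM, stood at 396.6 and 322.5 FPKM and is part of the sum without Clu. The 9 leukocyte markers all had a higher FPKM, with a median of 0.38, and summed to 48.8 and 66.5 FPKM, or 37.0 and 49.7 FPKM without C1qb. Fcer1g rose from 3.74 to 6.39 FPKM (q = 0.0359) and C1qb from 11.8 to 16.8 FPKM (q = 0.0202 by the authors' deposited table), with Lyz2 at 10.3 and 13.2 FPKM. Of 9 Leydig cell markers 5 were lower and 4 higher, and the median was -0.10. They summed to 1185 FPKM in control and 1452 FPKM in Ptbp1_cKO, and without Insl3 to 435.1 and 403.7 FPKM. Insl3 rose from 749.6 to 1049 FPKM (the authors' deposited table lists q = 0.00848) and Cyp17a1 stood at 161.8 and 143.8 FPKM. The part of cell composition in the lower Speer values was not tested.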

How the data were processed

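Per the labels' protocols, polyadenylated RNA of whole testes was made into stranded libraries. Cuffdiff, Cufflinks, STAR 2.6.1d, Trimmomatic 0.38, bcl2fastq 2.20 and the build mm10 appear in the submitters' processing notes, with settings and annotation not given in the sources used here. What was deposited is a table holding, per the file headers, the FPKM of each group, the log2 fold change, a signed test statistic (a score), and the p-value and q-value of Cuffdiff's gene test. It has no value per library, so groups follow the library titles and no SD was computed.

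The members and lists were chosen with earlier results of these data known. Calls are those of the deposited Cuffdiff q-value, with a threshold of 0.05. Positions and transcripts came from GENCODE M21, which matched 98.6% of the gene identifiers. Transcripts were compared with BLAST 2.17.0 (e-value under 1e-20) and promoter windows by local alignment in Biopython 1.88; proteins were not analysed here. Depth was read from the FPKM steps of genes with a single exon of 1500 to 6000 bases. The p-value from the statistic, the depth steps and the identity were tested on simulated data. Named were all members, tested Speer-named genes, Dlg5, and the nearest tested gene on each side that does not overlap the member. Of each list, the 2 most abundant and those past the threshold were named. Predicted copies and genes overlapping members were otherwise named after their values were seen. Pseudocounts, scalings, thresholds, a filter at 1 FPKM and window sizes were varied.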

Additional observations from a re-analysis of the deposited data

How the results depend on the processing

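The median log2 difference of the 7 Speer genes, -0.69 as deposited, was -0.64 with a pseudocount of 0.1, -0.51 with a pseudocount of 1, -0.64 after dividing by the summed FPKM of a group and -0.58 relative to the round spermatid markers. It was -0.57 over the 3 members with no near-identical copy over 80% of their own transcript. When the length of the shorter transcript was used instead, a choice made after seeing the data, Speer2 alone remained, at -0.24. A pseudocount cannot change a sign, and the scalings shift all genes alike. Centring on tested genes with at least 1 FPKM gave -0.68, and the filter at a mean of 1 FPKM removed no member. The count of members called was 3 both at q under 0.05 and at q under 0.1, and 0 were called with the normal p-value from the statistic. Over all tested genes the calls numbered 256, 421 at q under 0.1, 19 with the normal p-value and 255 with the filter at 1 FPKM; the cause was not tested. The median of tested genes within 1 Mb of a member, copies included, was -0.06, and -0.28 within 0.5 Mb, where copies are 21 of 39 genes. No paired analysis was possible because the table holds 1 value per group, and for the same reason no replicate could be left out. Depth limits the members with the fewest fragments most, with a counting interval of ± 0.17 for Speer3.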

Other observations

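The share of genes that Cuffdiff called depended on how many table rows shared a deposited locus. Counting only tested genes that reached 1 FPKM in either group, 2.44% of 7259 genes with a locus of their own were called at q under 0.05, 0.725% of 5519 genes at a locus of 2 or 3 rows, and 0.232% of 3015 genes at a locus of 4 rows or more. The same order held among genes with a log2 fold change between 0.5 and 1 in size, where 30.4% of 411, 10.4% of 173 and 2.99% of 134 were called. Speer3, Speer4b and Speer4d lie at loci of 4 rows or more, and all have a change of that size. None of these was called. Speer4a and Speer4e, both called, have loci of their own, and Speer4c, also called, shares a locus of 2 rows. Speer2 has a locus of its own and was not called, with a change smaller than 0.5. This pattern was noticed after the data were seen and its cause was not tested.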
